A study of Mus musculus with 36 samples.

Results

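The complement genes C1qa, C1qb, C1qc, C1ra, C1s1, C3, C4b, Cfb, Serping1 and C3ar1 were followed in whole mouse brain during experimental autoimmune encephalomyelitis (EAE), an immunisation-induced model of inflammatory demyelination. These 10 genes were taken by symbol from the 54532 Ensembl gene identifiers of a read count table, and all 10 were among the 18438 genes with enough counts to be tested. Cfb had enough only through EAE libraries. Every animal was wild type on the C57BL/6 strain. The farnesol EAE group (n = 10) received 100 mg/kg/day of trans,trans-farnesol, an isoprenoid alcohol, dissolved in corn oil and given by gavage. The vehicle EAE group (n = 9) received corn oil by gavage, the untreated EAE group (n = 9) received no gavage, and the naive group (n = 8) was healthy. All 3 EAE groups were immunised with the MOG35-55 peptide, emulsified in complete Freund's adjuvant, and given pertussis toxin, and brains were taken at the peak of disease on day 19. No group given adjuvant and toxin without the peptide was analysed here, so EAE minus naive compares the whole induction with none.

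Complement is a cascade of plasma and tissue proteins that tags targets and calls in phagocytes. In the classical pathway C1q binds the target, the proteases C1r and C1s attached to it cut C4, and the resulting convertase cuts C3, whose fragments coat the target or act on receptors such as C3ar1. In the mouse brain microglia are the main source of C1q, whereas C3 and C4b are also made by reactive astrocytes and by myeloid cells that enter from the blood.

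Total counts per library ran between 14.71 M and 24.21 M. The libraries fell into 2 sets by the count of a ribosomal RNA gene, at 1280 to 2780 CPM (counts scaled to a common library total) in 21 libraries and 5090 to 17700 CPM in 15. The lower set took in 3 farnesol libraries with every vehicle and every untreated library, and the higher set the other 7 farnesol libraries with every naive one. Apart from this, 8 EAE libraries (5 untreated, 3 vehicle) held more than 1 CPM of Sbp, which was at or under that level in the others, and 3 libraries, 1 each of farnesol EAE, untreated EAE and naive, were low in cerebellar genes. In untreated EAE the 5 Sbp libraries lay wholly below the other 4 for 8 of the 10 genes, all but C1s1 and Cfb. C1qb had 55.7 to 109 CPM in the 5 and 138 to 175 CPM in the 4, C3 10.7 to 26.9 and 43.5 to 83.3, and C4b 73.8 to 153 and 237 to 377. In vehicle EAE the Sbp libraries lay wholly below the others for 0 of the 10 genes. The share of all genes split in this way was not computed, so the split is not shown to be particular to complement. Neuron markers were abundant in every library, at 6180 to 8490 CPM summed over 10 genes. The labels say nothing of litter, batch or run, so p-values measure the spread between these brains.

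The genes lie in few places of the mouse genome (build GRCm38). C1qa (chr4:136895917-136898803), C1qc (chr4:136889804-136893065) and C1qb (chr4:136880129-136886187) are neighbours on the minus strand of chromosome 4, each with 3 exon blocks. C1ra (chr6:124512405-124523443, plus strand) and C1s1 (chr6:124530345-124542359, minus strand) are neighbours on chromosome 6, which also holds C3ar1 (chr6:122847138-122856161, minus strand). C4b (chr17:34728380-34743882), Cfb (chr17:34856374-34862518) and C3 (chr17:57203970-57228136) are on the minus strand of chromosome 17, and Serping1 (chr2:84765387-84775444) is on the minus strand of chromosome 2. Some exon sequence is shared with close copies. Of the 50-base windows of their transcripts, C1ra shared 48.02% with C1rb, C1s1 shared 21.85% with C1s2 and C4b shared 34.57% with C4a, so reads could be split or lost there. Cfb shared 73.01% with the overlapping read-through gene Gm20547, which had 0 counts in all 36 libraries. Whether reads of the shared stretch were left out of the count is not known. C1qa, C1qb, C1qc, C3, Serping1 and C3ar1 shared none.

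Promoter windows of 300 bases, from 250 bases before to 50 bases after the annotated start, were found for 6 of the 10 genes in the RefSeq table (build GRCm38.p6). C1qb (chr4:136886151-136886450, minus strand) and C1qc (chr4:136892865-136893164, minus strand) are shown because these chains moved in parallel, and C1ra (chr6:124512371-124512670, plus strand) and C3 (chr17:57228087-57228386, minus strand) as 2 of the genes that rose more than C1q. C1s1, which also did, has 2 windows that are not printed. Capitals mark the matches found on either strand to GAGGAA (an ETS-type motif), TTCNNNGAA (a STAT-type motif), TTGCNNAA (a C/EBP-type motif) and TATAAA.
C1qb: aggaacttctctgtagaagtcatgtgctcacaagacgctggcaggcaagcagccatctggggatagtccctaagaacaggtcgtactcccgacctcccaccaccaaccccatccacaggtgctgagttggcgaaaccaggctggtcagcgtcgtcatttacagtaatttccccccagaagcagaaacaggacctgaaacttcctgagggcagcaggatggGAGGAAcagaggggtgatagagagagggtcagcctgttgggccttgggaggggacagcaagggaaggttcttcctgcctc
C1qc: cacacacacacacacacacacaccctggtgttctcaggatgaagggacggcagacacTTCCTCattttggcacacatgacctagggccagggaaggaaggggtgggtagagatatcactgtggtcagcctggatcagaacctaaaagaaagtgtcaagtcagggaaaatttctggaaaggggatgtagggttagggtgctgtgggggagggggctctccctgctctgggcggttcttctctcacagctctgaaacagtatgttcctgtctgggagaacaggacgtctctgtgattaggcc
C1ra: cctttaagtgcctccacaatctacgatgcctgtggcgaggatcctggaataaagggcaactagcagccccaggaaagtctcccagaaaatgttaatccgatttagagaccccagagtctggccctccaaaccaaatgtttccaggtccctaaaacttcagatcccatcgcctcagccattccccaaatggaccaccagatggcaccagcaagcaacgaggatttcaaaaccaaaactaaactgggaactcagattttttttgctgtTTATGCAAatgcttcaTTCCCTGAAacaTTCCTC
C3: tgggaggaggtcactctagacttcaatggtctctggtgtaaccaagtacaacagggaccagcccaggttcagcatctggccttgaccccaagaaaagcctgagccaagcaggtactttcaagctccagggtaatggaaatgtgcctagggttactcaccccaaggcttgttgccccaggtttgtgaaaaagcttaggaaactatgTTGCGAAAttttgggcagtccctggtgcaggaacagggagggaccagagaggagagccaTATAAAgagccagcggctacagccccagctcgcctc
C1qb held GAGGAA at base 221 of the window and C1qc held its reverse complement at base 58, a motif present in 28.3% of all 32851 promoter windows. C1ra held a C/EBP-type match at base 267, a STAT-type match at base 283 and an ETS-type match at base 295. C3 held a C/EBP-type match at base 206 and TATAAA at base 265. Of the windows not printed, 1 of the 2 of C1s1 held a C/EBP-type match at base 9 and no other motif searched, and C3ar1 held TATAAA at base 16. The C/EBP-type letters occurred in 10.8% of all windows, the STAT-type letters in 8.3% and TATAAA in 13.6%. These matches describe the letters and not binding.

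Leaving Cfb aside, the other 9 of the 10 genes were higher in every EAE group than in naive brains (adjusted p below 0.05). The test was edgeR's quasi-likelihood test with Benjamini-Hochberg adjustment over all genes. Cfb passed in farnesol and vehicle EAE and not in untreated EAE, but it met the count filter only through EAE libraries. It had at most 5 counts per naive library, under the filter's minimum of 10, so its rise is not counted as support. Among all tested genes, 17.9% rose in farnesol EAE, 16.3% in vehicle EAE and 13.6% in untreated EAE. The sizes were far apart. Over the 3 comparisons C3 was 20 to 27.2 times its naive level, C1s1 9.10 to 9.93 times, C4b 5.35 to 6.71 times, C1ra 4.03 to 4.46 times and the C1q chains 2.21 to 2.70 times. Without vehicle replicate 4 the log2 change of C3 in vehicle EAE was 4.02, against 4.76 with it. Without the 8 Sbp libraries the log2 changes in untreated EAE were larger, at 5.36 for C3, 3.39 for C4b and 1.87 for C1qb, and those in vehicle EAE were 4.30, 2.34 and 1.09, all passing. With limma-voom and sample weights C3 and C4b rose by 3.86 and 1.76 in vehicle EAE. In bulk tissue more cells of a type and more RNA per cell cannot be told apart.

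**Figure D1:**
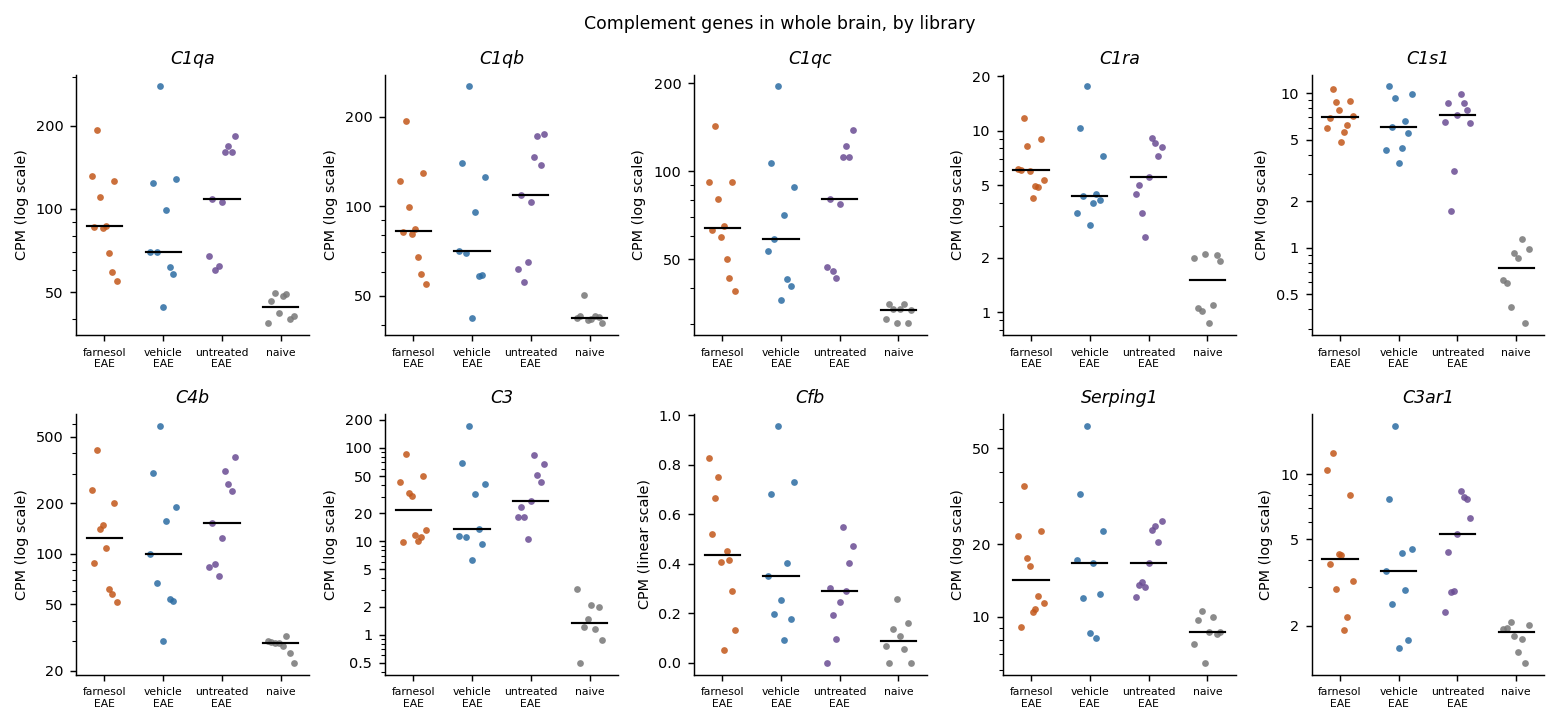
Level of each complement gene in CPM (log axes, linear for Cfb) in farnesol EAE, vehicle EAE, untreated EAE and naive brains, with 1 point per library and a bar at the median. C3 and C1s1 lay above every naive library in all 28 EAE libraries, while 1 vehicle library sat in the naive range for C1qa, C1qb and C4b.

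**Figure D2:**
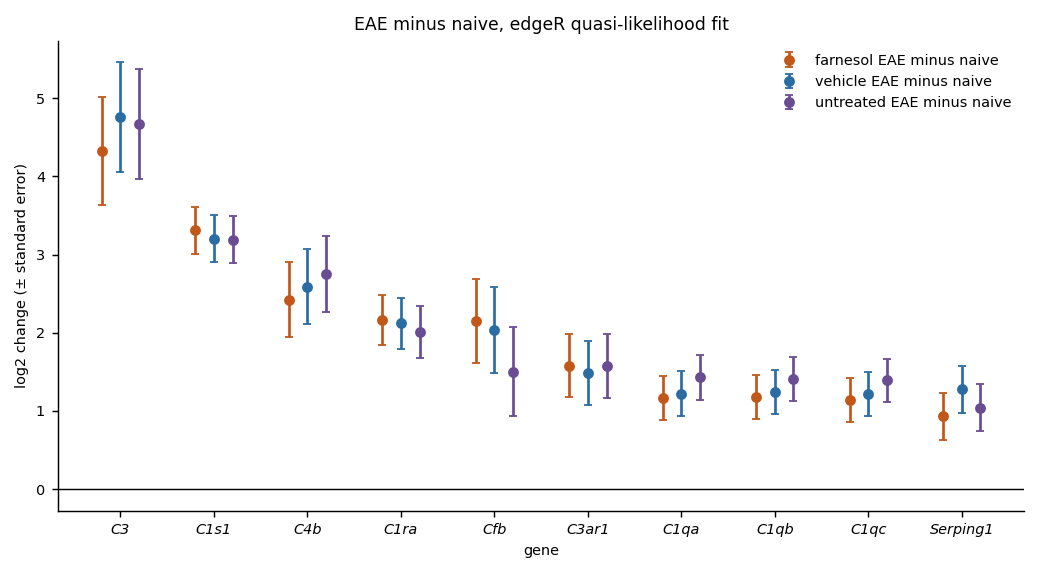
The log2 change of each gene in farnesol EAE, vehicle EAE and untreated EAE minus naive, with standard errors from the edgeR fit. C3 stands highest, at 4.32 to 4.76, while the C1q chains and Serping1 lie between 0.93 and 1.43.

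C1qa, C1qb and C1qc encode the 3 chains of C1q, the recognition molecule of the classical pathway. C1qb had 54.9, 82.9 and 194 CPM (lowest, median and highest) in farnesol EAE, 42.0, 70.5 and 253 CPM in vehicle EAE, 55.7, 109 and 175 CPM in untreated EAE, and 40.4, 42.3 and 50.3 CPM in naive brains. Every farnesol and untreated library was above every naive one, and 8 of 9 vehicle libraries were. The log2 change of C1qb was 1.18 ± 0.28 (SE, adjusted p = 0.00126) in farnesol EAE, 1.24 ± 0.28 (adjusted p = 0.00095) in vehicle EAE and 1.41 ± 0.28 (adjusted p = 0.000354) in untreated EAE, all against naive. C1qa changed by 1.17, 1.22 and 1.43 on the log2 scale and C1qc by 1.14, 1.22 and 1.39 in the same 3 comparisons. With the library set as a term in the edgeR fit, C1qb did not pass in vehicle EAE (0.55, adjusted p = 0.543) or untreated EAE (0.71, adjusted p = 0.496). C1qa and C1qc did not pass there either, and all 3 chains passed in farnesol EAE. Naive brains were tightly grouped for this gene, with a coefficient of variation of 7.04%, against 43.0% in farnesol EAE, 64.5% in vehicle EAE and 40.8% in untreated EAE.

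C1ra and C1s1 encode the serine proteases C1r and C1s, which sit on C1q and cut C4 and C2. C1s1 had 4.82, 7.03 and 10.7 CPM in farnesol EAE, 3.55, 6.03 and 11.1 CPM in vehicle EAE, 1.74, 7.27 and 9.87 CPM in untreated EAE, and 0.325, 0.743 and 1.14 CPM in naive brains. The EAE and naive ranges did not overlap in any of the 3 comparisons. Its log2 change was 3.31 ± 0.30 (adjusted p = 7.2e-10) in farnesol EAE, 3.20 ± 0.30 (adjusted p = 1.73e-09) in vehicle EAE and 3.19 ± 0.30 (adjusted p = 2.94e-09) in untreated EAE. C1ra had 4.24, 6.07 and 11.8 CPM in farnesol EAE, 3.04, 4.35 and 17.6 CPM in vehicle EAE, 2.60, 5.55 and 9.11 CPM in untreated EAE, and 0.866, 1.5 and 2.10 CPM in naive brains. Its ranges did not overlap either, with log2 changes of 2.16 ± 0.32, 2.12 ± 0.33 and 2.01 ± 0.33 and adjusted p of 4.35e-06, 7.3e-06 and 2.52e-05. The near-copies took few reads: C1rb had at most 2 counts in any library and C1s2 at most 10, whereas C1s1 had 36 to 245 counts in EAE libraries and 6 to 21 in naive ones.

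C1s1 rose more than C1ra. Taken as a ratio within each library, C1s1 was 0.911, 1.13 and 1.34 times C1ra (lowest, median and highest) in farnesol EAE, 0.53, 1.21 and 1.48 times in vehicle EAE, 0.497, 1.08 and 1.74 times in untreated EAE, and 0.168, 0.483 and 1.05 times in naive brains. The ratio was above every naive library in 7 of 10, 8 of 9 and 6 of 9 EAE libraries. The log2 change of C1s1 relative to C1ra was 1.19 ± 0.32 in farnesol EAE, 1.22 ± 0.33 in vehicle EAE and 1.13 ± 0.33 in untreated EAE (limma on log2 ratios, adjusted over all genes, adjusted p = 0.000193, 0.0002 and 0.000544). Of all genes, 0.51%, 0.602% and 0.732% were higher relative to C1ra in these comparisons.

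C4b encodes the mouse C4, which the C1 proteases cut, and C3 encodes the central component on which all pathways meet. C4b had 51.6, 124 and 419 CPM in farnesol EAE, 30.0, 100 and 583 CPM in vehicle EAE, 73.8, 153 and 377 CPM in untreated EAE, and 22.4, 29.4 and 32.3 CPM in naive brains. Only 1 vehicle library, replicate 5, lay within the naive range. The log2 change was 2.42 ± 0.48 (adjusted p = 0.000183) in farnesol EAE, 2.59 ± 0.48 (adjusted p = 0.000103) in vehicle EAE and 2.75 ± 0.49 (adjusted p = 7.92e-05) in untreated EAE. C3 had 9.75, 21.8 and 86.8 CPM in farnesol EAE, 6.24, 13.4 and 173 CPM in vehicle EAE, 10.7, 26.9 and 83.3 CPM in untreated EAE, and 0.502, 1.34 and 3.10 CPM in naive brains. No EAE library reached down to the naive range. C3 changed by 4.32 ± 0.69 (adjusted p = 1.38e-05), 4.76 ± 0.70 (adjusted p = 4.03e-06) and 4.67 ± 0.70 (adjusted p = 9.2e-06) on the log2 scale. Relative to C4b in the same library, C3 was higher by 1.91 ± 0.42, 2.03 ± 0.43 and 1.98 ± 0.43 on the log2 scale (limma, adjusted p = 2.62e-05, 7.98e-05 and 1.24e-05), and every EAE library exceeded every naive one. With the library set as a term this ratio passed in farnesol EAE alone (1.99, adjusted p = 0.00078), and not in vehicle EAE (2.32, adjusted p = 0.508) or untreated EAE (2.26, adjusted p = 0.164). C4a, the near-copy of C4b, had at most 3.38 CPM in any library.

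Per length the order of the levels changed. Per kilobase of exon, C1qa and C1qb were highest in all groups, at means of 96.3 and 89.4 CPM per kb in farnesol EAE, 99.4 and 93.3 in vehicle EAE, 115 and 105 in untreated EAE, and 42.8 and 39.5 in naive brains, and did not differ beyond their SDs. C1qc followed at 37.6, 39.8, 44.7 and 17.0 CPM per kb, and C4b at 26.6, 30.0, 33.4 and 4.98. C1qc and C4b overlapped in the EAE groups, with SDs of 16.0 and 19.8 CPM per kb in farnesol EAE. Serping1 at 7.19, 9.18, 7.74 and 3.78 and C3 at 5.81, 7.93, 7.39 and 0.3 CPM per kb were close to each other in EAE, within their SDs, and apart in naive brains. C1ra (2.24, 2.20, 2.02 and 0.507) and C1s1 (2.33, 2.15, 2.14 and 0.234) did not differ beyond their SDs in EAE. C3ar1 (1.25, 1.18, 1.23 and 0.418) and Cfb (0.159, 0.151, 0.1 and 0.0349) were lowest in the EAE groups, and in naive brains Cfb, C1s1 and C3 were. For Cfb the exon length includes the bases shared with Gm20547.

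Cfb encodes factor B, the protease of the alternative pathway. Whether reads shared with Gm20547 were lost from Cfb was not tested. The counts of Cfb were low, at 1 to 20 per farnesol library and 2 to 19 per vehicle library. They were 0 to 13 per untreated library and 0 to 5 per naive library. Only EAE libraries brought Cfb over the count filter. Its log2 change was 2.15 ± 0.54 (adjusted p = 0.00222) in farnesol EAE and 2.04 ± 0.55 (adjusted p = 0.00433) in vehicle EAE, and 1.5 ± 0.57 in untreated EAE, where it did not pass (adjusted p = 0.0516) but did with DESeq2 (1.55, adjusted p = 0.0351), with limma-voom (1.73, adjusted p = 0.0278) and without the Sbp libraries (2.04, adjusted p = 0.0157). The ranges overlapped in all 3 comparisons. Serping1 encodes C1 inhibitor, which inactivates C1r and C1s. It had 9.07, 14.2 and 35.0 CPM in farnesol EAE, 8.17, 16.8 and 62.0 CPM in vehicle EAE, 12.1, 16.8 and 24.9 CPM in untreated EAE, and 6.46, 8.66 and 10.6 CPM in naive brains. Serping1 rose by 0.93 ± 0.30 (adjusted p = 0.015), 1.28 ± 0.30 (adjusted p = 0.00142) and 1.04 ± 0.30 (adjusted p = 0.0108) on the log2 scale, and only the untreated range cleared the naive one. C3ar1, the receptor for the C3a fragment, had medians of 4.05, 3.57 and 5.30 CPM in the farnesol, vehicle and untreated EAE groups and 1.86 CPM in naive brains. C3ar1 rose by 1.58 ± 0.40 (adjusted p = 0.00258), 1.49 ± 0.41 (adjusted p = 0.00519) and 1.57 ± 0.41 (adjusted p = 0.00428), with 9 of 10, 7 of 9 and 9 of 9 libraries above all naive ones. With limma-voom and sample weights, C3ar1 in vehicle EAE fell short (0.92, adjusted p = 0.057).

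Counted over the 10 genes, 7 farnesol, 4 vehicle and 9 untreated ranges lay wholly above the naive range, where 3.23%, 3.79% and 2.62% of all genes did. The 2 library sets bear on this. With the set as a term in the edgeR fit, 9 of 10 genes passed in farnesol EAE (Serping1 did not, adjusted p = 0.089), 2 in vehicle EAE and 1 in untreated EAE. The 9 include Cfb, which only EAE libraries brought over the count filter. Of all genes, 684 passed in vehicle EAE and 175 in untreated EAE with that term. The vehicle and untreated values of that fit rest on the farnesol group, the only one in both sets, with 3 libraries in the lower one. C1s1 passed in both, at 3.05 (adjusted p = 0.00045) in vehicle EAE and 3.03 (adjusted p = 0.000731) in untreated EAE, and C3 passed in vehicle EAE at 3.74 (adjusted p = 0.04). For all 10 genes in these groups, C1s1 and C3 included, the fit takes the set effect from farnesol libraries alone. It therefore cannot tell the set and the disease apart there. The share of all genes that passed in farnesol EAE, with the set term or inside the higher set, is not given here. The counts of the 10 genes in those farnesol fits therefore stand without a background. Inside the higher set alone, with 7 farnesol and 8 naive libraries, all 9 genes with enough counts rose: C3 by 3.93, C1s1 by 3.27, C1ra by 2.04, C4b by 1.96, C3ar1 by 1.09, C1qb by 0.94, C1qa by 0.93, C1qc by 0.90 and Serping1 by 0.73 on the log2 scale, the highest adjusted p being 0.00197.

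Each gene was next expressed as a percentage of C1qb in the same library, so that C1qb served as the yardstick. Which cells made C1qb in EAE brains was not tested. C1qa was 103% of C1qb in farnesol EAE, 102% in vehicle EAE, 105% in untreated EAE and 102% in naive brains, and C1qc was 74.1%, 75.6%, 76.2% and 77.4% (medians). The 3 chains kept their proportions: log2 changes relative to C1qb lay between -0.04 and 0.02, and none passed. C3 was 11.9%, 28.6% and 44.8% of C1qb (lowest, median and highest) in farnesol EAE, 14.9%, 23.1% and 68.5% in vehicle EAE, 16.4%, 30.0% and 57.1% in untreated EAE, and 1.23%, 3.18% and 7.40% in naive brains. No EAE library overlapped the naive range. C4b had medians of 135%, 142%, 153% and 68.3%, C1s1 of 8.39%, 7.95%, 5.68% and 1.83%, and C1ra of 7.41%, 6.97%, 5.28% and 3.68%, in the same group order. Serping1 (17.7%, 20.4%, 15.8% and 21.0%) and C3ar1 (5.20%, 4.53%, 4.57% and 4.28%) were close to the naive share.

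Against this yardstick C3, C1s1, C4b and C1ra rose further than C1qb in all 3 comparisons, and C1qa, C1qc, Serping1 and C3ar1 did not pass. Cfb was left out here for its low counts. In the same test 1.32%, 1.38% and 1.32% of all genes were higher relative to C1qb in farnesol, vehicle and untreated EAE, and 81.9%, 80.4% and 91.1% were lower. In farnesol EAE the log2 changes relative to C1qb were 2.94 ± 0.31 for C3 (limma, adjusted p = 1.4e-11), 2.26 ± 0.28 for C1s1 (adjusted p = 4.57e-09), 1.07 ± 0.25 for C1ra (adjusted p = 0.000379) and 1.04 ± 0.26 for C4b (adjusted p = 0.000489). In vehicle EAE they were 3.01, 2.13, 0.91 and 0.97, and in untreated EAE 3.21, 1.80, 0.67 and 1.23. An exact two-sided permutation of the libraries gave p = 2.29e-05 for C3 in farnesol EAE and p = 4.11e-05 in the other 2 groups, the smallest these designs allow, and p = 0.00897 at most for the other 3 genes. For Serping1 it gave p = 0.0424 in farnesol EAE (-0.26), p = 0.739 in vehicle EAE (-0.04) and p = 0.042 in untreated EAE (-0.29), which did not pass after adjustment over the 24 exact tests (adjusted p = 0.0727, 0.806 and 0.0727). With the library set as a term, C3 and C1s1 still passed in all 3 comparisons, while C1ra and C4b passed in farnesol EAE alone (adjusted p = 0.863 for both in vehicle EAE and 0.451 in untreated EAE). The share of all genes that passed in that fit is not given here, so these calls stand without a background. For vehicle and untreated EAE that fit too takes the set effect from the farnesol group alone.

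**Figure D3:**
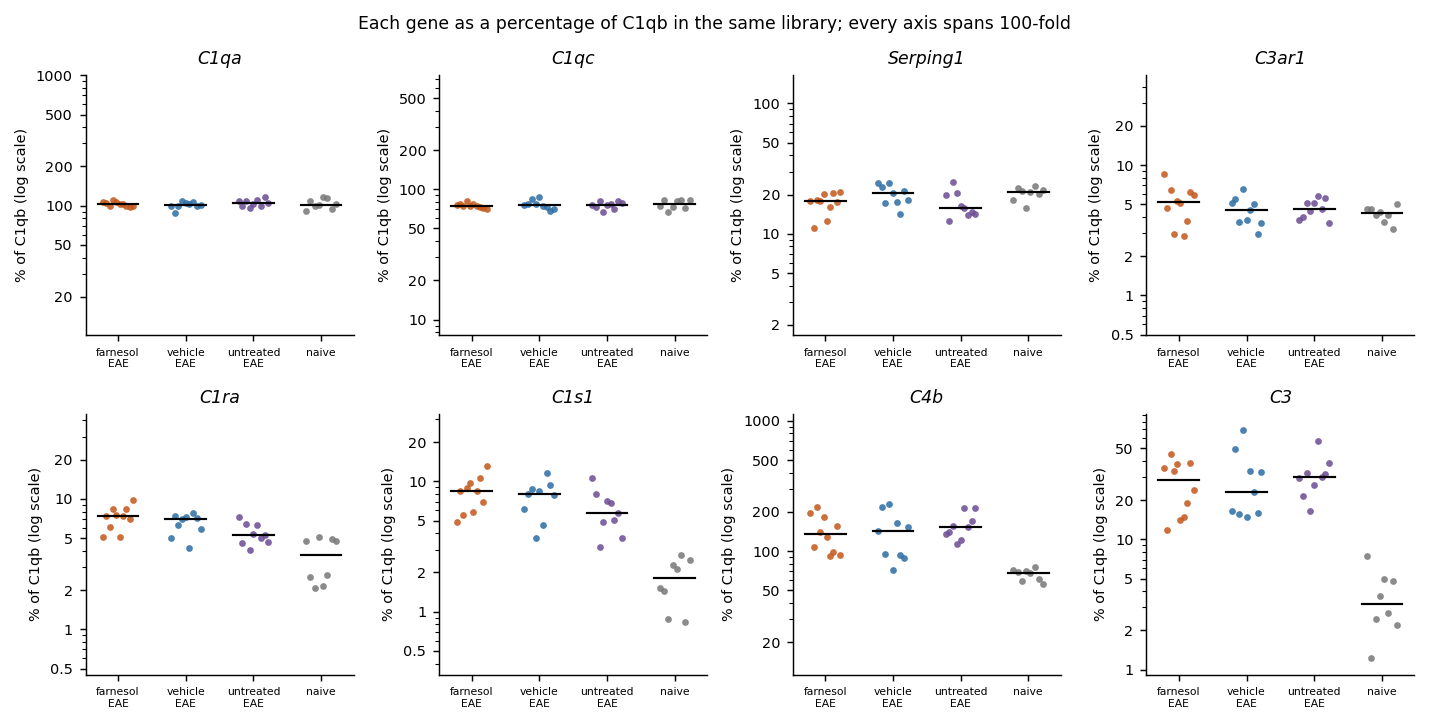
Each gene as a percentage of C1qb in the same library (log axes, each spanning 100-fold), in farnesol EAE, vehicle EAE, untreated EAE and naive brains, with a bar at the median. C1qa and C1qc form flat bands near 100% and 75%, while C3 moved to medians of 23.1% to 30.0% in EAE against 3.18% in naive brains.

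By level, none of 12 genes of a homeostatic microglia list rose in farnesol or vehicle EAE and 4 rose in untreated EAE, while 2 fell in vehicle EAE, with median log2 changes of 0.1, 0.1 and 0.28. Relative to C1qb all 12 were lower in each EAE group, as were 81.9%, 80.4% and 91.1% of all genes, so that count says little about microglia. Their medians were -1.0, -0.99 and -1.07 on the log2 scale in farnesol, vehicle and untreated EAE. P2ry12, a purinergic receptor of resting microglia, was lower by -1.41, -1.49 and -1.56, and Tmem119, a microglial surface marker, by -0.77, -0.78 and -0.68. Aif1, which encodes the pan-macrophage protein Iba1, did not pass (-0.08, -0.13 and -0.22, limma adjusted p = 0.751, 0.614 and 0.365). Of 12 genes of activated macrophages, 6 were higher and 2 lower relative to C1qb in each EAE group, and 4 did not pass. Of all genes 1.32%, 1.38% and 1.32% were higher. The lowest of the 12 stood at -1.24, -1.11 and -1.22 in farnesol, vehicle and untreated EAE. Itgax, which encodes the alpha chain of complement receptor 4, was higher by 2.94, 3.04 and 3.42, Lyz2 by 1.48, 1.64 and 1.56, and Cybb by 1.58, 1.76 and 1.63. By level, of the 3 groups Tmem119 passed against naive only in untreated EAE (0.66 ± 0.20, adjusted p = 0.0138).

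Summed markers of monocytes and neutrophils lay above the naive range in every EAE group, and those of reactive astrocytes in farnesol and untreated EAE. Those of T cells, B cells and activated macrophages overlapped it in every EAE group. By single gene, 11 of 12 activated macrophage genes and 6 of 9 T cell genes tested rose in each EAE group. Of 4 B cell genes 0, 2 and 2 rose in farnesol, vehicle and untreated EAE, where 17.9%, 16.3% and 13.6% of all genes rose. Summed monocyte markers (9 genes) ran over 33.7 to 81.9 CPM in farnesol EAE, 34.4 to 160 in vehicle EAE, 35.8 to 60.3 in untreated EAE, and over 22.8 to 27.8 in naive brains, where F10 and Clec4e were at 0. Neutrophil markers (10 genes) summed to 27.3 to 78.0, 30.1 to 72.9, 14.9 to 69.6 and 3.83 to 6.53 CPM, and reactive astrocyte markers (15 genes) to 546 to 1640, 488 to 2170, 707 to 1480 and 389 to 499 CPM. Liver genes (6 genes), from the organ that makes most plasma complement, summed to 0.296 to 2.57, 0.395 to 3.49, 0.559 to 2.40 and 0.867 to 7.99 CPM, no higher in EAE. The part of these cells in the complement changes was not tested.

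EAE brains differed widely, also within a group, where C3 spanned 8.90 times in farnesol EAE, 27.8 times in vehicle EAE and 7.82 times in untreated EAE. Over the 28 EAE libraries the highest level was 27.8 times the lowest for C3, 19.4 times for C4b, 10.6 times for C3ar1, 7.59 times for Serping1, 6.77 times for C1ra, 6.39 times for C1s1, 6.26 times for C1qa, 6.03 times for C1qb and 5.35 times for C1qc. Vehicle replicate 4 was the highest library for every gene except C1s1, and vehicle replicate 5 the lowest for the C1q chains, C4b, C3 and C3ar1. Vehicle replicate 4 had 253 CPM of C1qb, 583 of C4b and 173 of C3, and vehicle replicate 5 had 42.0, 30.0 and 6.24 CPM. Both are among the Sbp libraries. For C1s1 these brains had 9.27 and 3.55 CPM, a smaller gap.

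Within farnesol EAE and vehicle EAE C1qb was set against the other genes on the log2 scale. The untreated group, split by Sbp into 5 and 4 libraries that did not overlap for most genes, was too small on either side for a relation to be tested. Of 18 relations (9 gene pairs in 2 groups), 17 passed for Pearson's r and 16 for Spearman's rho. Permutation p-values were adjusted by Benjamini-Hochberg over the 27 computed in all, untreated EAE included. The share of all genes related to C1qb in this way was not computed, so these counts show no link particular to complement. Over the 28 EAE libraries many other genes stood nearer to C1qb, with C3 at rank 182 and C1ra at rank 232 of 11833. C1qb and C1qa had r = 0.99 in both groups (permutation p = 1e-05 and 2.2e-05, adjusted p = 0.000135 and 0.000138). C1qb and C4b had r = 0.97 and rho = 0.92 in farnesol EAE (permutation p = 3e-05 and 0.00051, adjusted p = 0.000138 and 0.00138), and r = 0.99 and rho = 0.98 in vehicle EAE (exact p = 5.51e-06 and 4.96e-05, adjusted p = 0.000135 and 0.000446). C1qb and C3 had r = 0.88 and rho = 0.75 in farnesol EAE (permutation p = 0.0007 and 0.0169, adjusted p = 0.00116 and 0.0217), and r = 0.98 and rho = 0.90 in vehicle EAE (exact p = 3.58e-05 and 0.00203, adjusted p = 0.000138 and 0.00457). Without the 2 libraries farthest from the median of C1qb, r for C3 was 0.73 and 0.95, and for C4b 0.95 and 0.97. In the 7 farnesol libraries of the higher set r was 0.83 for C3 and 0.94 for C4b, and in the 6 vehicle libraries without Sbp 0.97 and 0.98.

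C1s1 had the lowest r with C1qb in both groups. It was 0.59 in farnesol EAE (permutation p = 0.0695, adjusted p = 0.0695) and 0.76 in vehicle EAE (exact permutation p = 0.0178, adjusted p = 0.0185), with rho of 0.45 and 0.65 that did not pass (permutation p = 0.191 and 0.0666, adjusted p = 0.191 and 0.0719). Without the 2 farthest libraries r was 0.04 and 0.63, so in farnesol EAE the value rests on those libraries. In the 7 farnesol libraries of the higher set r was 0.50, and in the 6 vehicle libraries without Sbp it was 0.67. C1ra and C1s1 had r = 0.92 and 0.85 with each other (permutation p = 0.00016 and 0.00163, adjusted p = 0.000393 and 0.0022) and rho = 0.82 and 0.95 (permutation p = 0.00616 and 0.000353, adjusted p = 0.00978 and 0.00106). Their r was 0.84 and 0.97 without the 2 farthest libraries, 0.92 in the farnesol libraries of the higher set and 0.95 in the vehicle libraries without Sbp. Whether r for C1s1 differs from r for C4b was not tested.

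**Figure D4:**
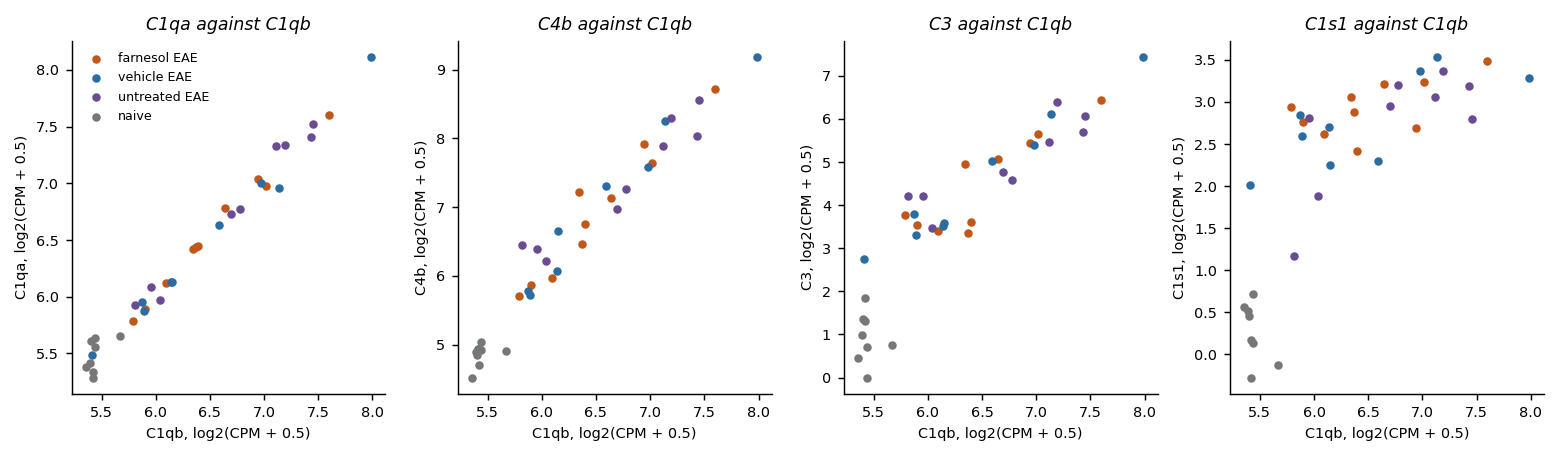
Levels of C1qa, C4b, C3 and C1s1 against C1qb, each as log2(CPM + 0.5), with 1 point per library of farnesol EAE, vehicle EAE, untreated EAE and naive brains. C1qa and C4b climb along a line with C1qb, while C1s1 spreads more, with r of 0.59 in farnesol EAE and 0.76 in vehicle EAE.

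The genes most like each component were read from deviations from the group means over the 28 EAE libraries, among 11833 genes of at least 5 CPM, as a description of libraries that also share their depth and set. C1qb was nearest to C1qa (r = 0.993), C1qc (0.991) and the lysosomal cathepsin genes Ctss (0.992), Ctsh (0.986) and Ctsz (0.986). C3 was nearest to Cybb (0.972), a subunit of the phagocyte oxidase, and to the class II antigen presentation genes H2-Aa (0.969), H2-Ab1 (0.969), Cd74 (0.967) and H2-Eb1 (0.967). C4b was nearest to H2-K1 (0.987), Lgals3bp (0.985), B2m (0.984), Cd52 (0.983) and Mpeg1 (0.983). Among the followed genes that were ranked, C1s1 stood farthest down the ranking for C1qb, at rank 591 with r = 0.694, where C4b had rank 37 and C3 rank 182. Cfb had too low a level to be ranked, and the ranks of other complement genes were not looked up. Without the Sbp libraries 4 of the 5 genes stayed among the 5 nearest for each of C1qb, C3 and C4b, and with a pseudocount of 2 so did 3 of the 5 for C3.

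None of the 10 genes passed between EAE groups, where farnesol is set against its vehicle and against no gavage. The higher rRNA set held 7 of the 10 farnesol libraries and no vehicle or untreated library. Differences with farnesol thus mix treatment with library set, and those of C1qb and C3 changed sign with the set as a term, none passing. In farnesol minus vehicle EAE 0.0922% of all genes passed, in farnesol minus untreated EAE 1.87% and in vehicle minus untreated EAE 0.0217%. None had an unadjusted p below 0.05 in any of them, against 5.59%, 14.4% and 8.25% of all genes, and none passed with DESeq2 or limma-voom. C1qb averaged 97.3 ± 41.8 CPM in farnesol EAE and 102 ± 65.5 in vehicle EAE (SD, n = 10 and 9), a log2 difference of -0.06 (95% interval -0.58 to 0.46, edgeR adjusted p = 0.998). C3 averaged 29.9 ± 24.9 CPM in farnesol EAE and 40.8 ± 53.8 in vehicle EAE, a difference of -0.44 (-1.43 to 0.54, adjusted p = 0.998). Against untreated EAE (114 ± 46.5 CPM of C1qb and 38.0 ± 24.9 of C3), the farnesol differences were -0.23 (-0.75 to 0.29) and -0.35 (-1.33 to 0.64). Vehicle minus untreated EAE gave -0.17 (-0.70 to 0.37) for C1qb and 0.10 (-0.91 to 1.10) for C3. Over the 10 genes the differences ran between -0.44 (C3) and 0.11 (C1s1) in farnesol minus vehicle, -0.35 (C3) and 0.65 (Cfb) in farnesol minus untreated, and -0.21 (C1qa) and 0.54 (Cfb) in vehicle minus untreated EAE. The intervals are wide, most of all for C3, and do not show that the groups were alike. Relative to C1qb none of the 8 other genes taken as a ratio passed between EAE groups, where 0.0868% of all genes were higher and 0.00542% lower in farnesol minus untreated EAE, and 0% in the other comparisons.

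Of 50 other genes of the complement system, 34 could be tested. Of these, 12 rose and 4 fell in farnesol EAE, 11 rose and 3 fell in vehicle EAE, and 11 rose and 2 fell in untreated EAE. Of all genes 17.9%, 16.3% and 13.6% rose and 16.3%, 15.2% and 11.3% fell. The median log2 change of the 34 was 0.16, 0.13 and 0.11, near that of all genes (0.01, 0.00 and -0.01). Of 10 receptor genes tested, C3ar1 among them, 6 rose in each EAE group, and Calr fell in farnesol EAE (-0.19 ± 0.06, adjusted p = 0.0169). Cr2 (0.06, -0.34 and -0.13), Cd93 (-0.06, -0.09 and 0.05) and Lrp1 (0.02, -0.01 and -0.01) did not pass in any group. Itgax rose by 4.27 ± 0.76, 4.69 ± 0.75 and 4.87 ± 0.75 (adjusted p = 5.12e-05, 1.55e-05 and 1.38e-05), Itgb2, its shared beta chain, by 1.56, 1.77 and 1.87, and Itgam, the alpha chain of complement receptor 3, by 1.09, 1.02 and 1.22. The C5a receptor genes C5ar1 (1.55, 1.57 and 1.72) and C5ar2 (1.54, 1.32 and 1.47) also passed. Among upstream components C2, the partner of C4 in the convertase, rose by 0.62, 0.84 and 0.80 and C4a by 1.06, 1.01 and 1.35, and Cfp, which stabilises the alternative convertase, rose by 0.78, 0.82 and 0.98.

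Of the lectin-pathway proteases, Masp1 fell by 0.26 in farnesol EAE and 0.19 in vehicle EAE and did not pass in untreated EAE (-0.13), and Masp2 rose by 0.97 ± 0.36 in farnesol EAE (adjusted p = 0.0329) and did not pass in vehicle (0.58) or untreated EAE (0.54). Of 3 terminal genes tested, C8g rose by 0.54, 0.61 and 0.58, C7 fell by 0.82 ± 0.30 in untreated EAE (adjusted p = 0.0391) and did not pass in farnesol (-0.39) or vehicle EAE (-0.73), and Hc, which encodes C5, did not pass in any group (0.31, 0.37 and -0.13). Among regulators, Vtn, which encodes vitronectin, fell by 0.44, 0.35 and 0.33. The membrane inhibitors Cd55 (0.17, 0.21 and 0.21) and Cd59a (0.11, 0.03 and -0.01) did not pass, and Cd46 rose by 0.54 in farnesol EAE and 0.58 in vehicle EAE. Between EAE groups none of the 34 passed, except Calr, a chaperone that also binds C1q, which averaged 347 CPM in farnesol EAE and 423 CPM in untreated EAE (log2 difference -0.29 ± 0.06, adjusted p = 0.00665).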

How the data were processed

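The values are raw read counts per Ensembl gene for 36 whole-brain libraries, as deposited by the authors in 1 table. Per the labels' protocols, RNA was taken with an RNeasy kit and libraries made with a NEBNext Ultra kit. The submitters' processing notes name STAR 2.5 and mm10, and the labels' protocols also name Kallisto. How reads were counted, with which annotation and strand setting, is not given in the sources used here. GENCODE gave a symbol for 54409 of 54532 identifiers, holding 99.94% of counts.

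All 36 libraries were fitted together with edgeR 4.0.16 (R 4.3.3), using TMM scaling, its filter at a minimum count of 10 and a total of 15 (18438 genes), the quasi-likelihood test and Benjamini-Hochberg adjustment over all genes (threshold 0.05). CPM are scaled by TMM. Ratios within a library were log2 CPM (prior count 0.5) minus that of C1qb, C1ra or C4b, tested with limma 3.58.1 and adjusted over all genes. That test pools the spread over genes, so an exact permutation of libraries is given beside it. Correlations used exact permutation (n = 9) or 100000 resamples (n = 10). Tested on simulated counts for farnesol EAE minus naive, the edgeR step recovered 44%, 58%, 78% and 98% of genes changed 1.25, 1.5, 2 and 4 times, with 7 false calls among 18438 genes. The simulated counts held neither the library sets nor the Sbp split, so the 7 false calls do not measure errors from those. Alternatives were RLE scaling, DESeq2 1.42.0, limma-voom, no filter, the 2 groups alone, a replicate block, the library sets, and leaving out libraries. The 10 genes and all lists were chosen with earlier results of these data known. Genes outside the 10 were named by rule: any complement gene, at most 4 per other list by smallest p plus a few fixed markers, and the 5 most similar genes. The values of 1 listed complement gene are not reported here. No column of another series was used.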

Additional observations from a re-analysis of the deposited data

Results flagged for a closer look

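Among 40 combinations of gene and group checked for a library far from the rest, of which chance gives about 1 in 20, 1 stood out. For C1qb, naive replicate 3 had 50.3 CPM and the next naive library 42.9 CPM, a gap of 0.725 of the group's range on the log2 scale and above the critical value for 8 libraries. The level lay below all 10 farnesol and all 9 untreated EAE libraries and above 1 vehicle library. Leaving this library out kept C1qb above naive in all 3 comparisons.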

How the results depend on the processing

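Against naive the 10 genes kept their sign under every alternative in which they could be fitted. With the library set as a term, the genes of the 10 that passed numbered 1 in untreated EAE and 2 in vehicle EAE, and of all genes 175 and 684 passed. Relative to C1qb, 2 passed in each of these. The share of all genes that passed in that ratio fit is not given here, so this count stands without a background. Low counts limit Cfb most, at 0 to 20 per library. Whether they come from low expression or from reads lost to Gm20547 was not tested. Cfb was below the filter, and so has no value, in the fits of 2 groups and in the higher set. The same held without some single EAE libraries.

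The replicate numbers do not pair the libraries: over 48 same-numbered pairs the correlation of deviations ran between -0.385 and 0.435, with 8 over 0.1. With the replicate block, 10 genes passed in vehicle minus untreated EAE, 7 in farnesol minus vehicle and 202 in farnesol minus untreated. C3 in vehicle minus untreated became -0.38, C1qb in farnesol minus vehicle 0.09, and C1qa relative to C1qb in farnesol minus naive 0.01.

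Counts of all genes between EAE groups moved with most settings. Vehicle minus untreated EAE gave 7 with RLE scaling, 43 with DESeq2, 15 with limma-voom, 11 with the set term, 0 without Sbp libraries, and 1 each with 2 groups, the lower set or without libraries low in cerebellar genes. Farnesol minus vehicle gave 42 with DESeq2, 8 with 2 groups, 1 with the set term, 0 in the lower set and 7 without Sbp libraries. Farnesol minus untreated gave 521 with DESeq2, 128 with 2 groups, 56 with the set term, 12 in the lower set, 567 without libraries low in cerebellar genes and 225 without Sbp libraries. Leaving out 1 library gave 0 to 15, 8 to 36 and 210 to 500.

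Differences near 0 changed sign, none passing, and the cause was not tested. C1qb in farnesol minus vehicle became 0.17 with limma-voom, 0.39 with the set term, 0.38 in the lower set and 0.09 without Sbp libraries (-0.23 to 0.24 without 1 library), and C3 0.27, 0.19, 0.18 and 0.03 (-0.79 to 0.31). In farnesol minus untreated, C1qb became 0.22 with the set term and 0.21 in the lower set, and C3 0.29 and 0.28. C3 in vehicle minus untreated became -0.78 with limma-voom and -1.06 without Sbp libraries (-0.65 to 0.32 without 1 library). Relative to C1qb and naive, C3ar1 became -0.40 in untreated and -0.47 in vehicle EAE and Serping1 0.18 in vehicle EAE with the set term, and C1qc 0.01 in untreated EAE without Sbp libraries. Without 1 library, C1qa ran over 0.00 to 0.05 in untreated and -0.03 to 0.02 in farnesol EAE, C1qc over -0.05 to 0.00 in untreated and -0.04 to 0.01 in vehicle EAE, and in vehicle EAE Serping1 over -0.09 to 0.02 and C3ar1 over 0.00 to 0.14. The set term for ratios was added after the data were seen.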

Other observations

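Of the other complement genes, 16 had too few counts to be tested, and their levels are given without a test. C6, a terminal component, averaged 0.192 CPM in farnesol EAE, 0.197 in vehicle EAE and 0.181 in untreated EAE, against 0.0154 CPM in naive brains. Cfi, the protease that inactivates C3b, averaged 0.109, 0.120 and 0.0907 CPM in the same EAE groups and 0.0337 in naive brains. C9, which forms the pore, averaged 0.00475 CPM in farnesol EAE, 0 in vehicle EAE, 0.00469 in untreated EAE and 0.0326 CPM in naive brains. These 3 genes were chosen after their values were seen.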
